A study of Mus musculus with 16 samples.

Results

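The gastrocnemius of trained mice carrying CT26 tumors (the TE group) was compared with that of tumor-free, untrained mice (the C group) across all measured genes. The groups compared hold 8 of the 16 RNA libraries of the study, 4 TE libraries (TE1 to TE4) and 4 C libraries (C1 to C4), chosen by their labels. The other 8 libraries, from tumor-free trained mice (E) and tumor-bearing untrained mice (T), entered the same fit and helped to estimate the spread behind each test. All mice were male wild-type BALB/c, 8 weeks old at purchase. CT26, a colon carcinoma line of the same strain, was injected under the skin at the hind limb in the T and TE groups, and saline was injected in C and E. Training in E and TE was treadmill running over 4 weeks, with sessions of 60 min at a speed of 14 m/min, 6 of them a week, while C and T mice were placed on a treadmill that did not move. The sequenced mice were 4 of the 12 in each group, and the sources used here do not give the time of day of tissue collection or whether the muscle came from the injected limb. The labels call the TE group tumor-bearing, but not every injected TE mouse of the study grew a tumor, and whether each of the 4 sequenced TE mice had one is not given in the sources used here. Because TE differs from C in tumor and in training at once, their separate parts cannot be told apart in this comparison alone. PolyA RNA was counted per gene, with 35628211 to 37210488 counts in each of the 8 libraries, and levels are given as CPM (counts relative to the library total, scaled with TMM factors). A level of 3 counts was at most 0.0875 CPM in these libraries, which covers counting error only.

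Skeletal muscle of a tumor-bearing host receives inflammatory cytokines, of which the interleukin-6 family acts through JAK and STAT3 to raise acute phase genes, while glucocorticoids and FoxO factors drive ubiquitin ligases of protein breakdown. Interferons raise GTPases of cell-autonomous immunity. Endurance running is known for raising mitochondrial and capillary genes in muscle. A whole-muscle sample also holds blood, vessel, nerve, fat and immune cells, and in such bulk samples more cells of a type and more RNA per cell cannot be told apart.

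Of 14749 tested genes, 48 passed the test (0.325% of the genes tested), which is edgeR's quasi-likelihood test at a Benjamini-Hochberg adjusted p under 0.05 and any fold, and these are the called genes below. In TE, 34 were higher than in C (0.231% of genes tested) and 14 were lower (0.0949%). Among them 19 also passed a fold change of 2 (0.129%), 17 of them higher. The higher genes included globin and heme genes, acute phase and neutrophil genes, interferon-induced GTPases and clock genes. For every called gene the 4 TE values lay wholly above or below the 4 C values, as they did for 1136 of all tested genes (7.7%). The median log2 fold change over all tested genes was 0.00196, with 7450 higher and 7299 lower fitted values. These are the shares to set beside the counts of higher and lower list genes below. Genes of a list come from the same libraries, so such counts are not independent. Mean distances between expression profiles were 66.0 within C, 70.8 within TE and 72.5 between TE and C. Skeletal muscle markers were high in all 8 libraries, with a summed level of 145700 to 161050 CPM in C and 150510 to 166000 CPM in TE, and none of the 12 was called (median log2 0.03). The number of called genes moved with single libraries left out, fits that also hold fewer mice. It was 14 without C4, 19 without TE3, 24 without C3, 26 without TE4 and 28 without TE2, and 14 of the 48 genes were called whichever library was left out. Leaving out TE4 and C3 together, an alternative chosen after seeing the data, left 17. TE4 stood apart by lymphocyte and lymph node genes, whose summed level was 9.76 to 244 CPM in TE, highest in TE4, and 10.6 to 90.7 CPM in C, highest in C3. None of the 29 tested genes of that list was called.

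**Figure D1:**
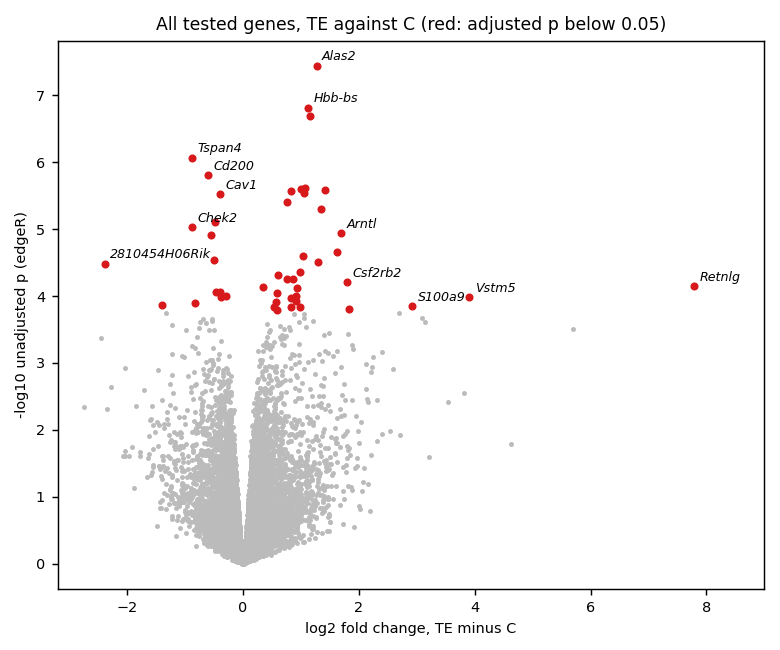
Each point is 1 of the 14749 tested genes, with the log2 fold change of TE minus C on the horizontal axis and -log10 of the unadjusted edgeR p-value on the vertical axis, and red points are the 48 called genes. Alas2 has the smallest p, and Retnlg lies far to the right because all 4 C libraries hold 0 counts of it, so its fitted fold change is not a measured size.

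Globin genes and a heme synthesis gene were higher in TE. The called genes of this kind were Alas2, the first and rate-limiting enzyme of heme synthesis in red cell precursors, and the globin chains Hbb-bs, Hbb-bt, Hba-a1 and Hba-a2. GATA1, a factor of red cell precursors, binds sequences that hold the letters GATA, and only the core AGATAA was searched. That core was searched on both strands of the 250 bases before the start of the canonical GENCODE transcript in GRCm39, and 9.61% of 21738 protein-coding genes held it there. The matches in 3 of the 5 genes are printed below on the strand of the gene with the core, or its reverse complement, in capitals, because these genes moved together. The windows of Hba-a1 and Hba-a2 lack AGATAA but hold TGATAA, another form with GATA, which was not searched over all genes. The Alas2 match (chrX:149330315-149330344, plus strand) starts 44 bases before the transcript, the Hbb-bs match (chr7:103477328-103477357, minus strand) 176 bases before it and the Hbb-bt match (chr7:103463411-103463440, minus strand) 225 bases before it. The Alas2 and Hbb-bs matches lie within an annotated gene span but in no exon, and the Hbb-bt match overlaps an exon of another transcript. A match of letters describes the window and is no evidence of binding.
Alas2: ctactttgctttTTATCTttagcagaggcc
Hbb-bs: tgttctctgcacAGATAAggacaaacatta
Hbb-bt: acaatattgaagAGATAAtattgaacagac

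Alas2 (chrX:149330371-149353634 in GRCm39, plus strand) measured 11.0, 11.7, 8.71 and 7.88 CPM in C1 to C4 and 24.6, 20.4, 20.2 and 29.4 CPM in TE1 to TE4. The lowest TE library lay above the highest C library, and the fold was 2.41 (log2 1.27 ± 0.14 SE, adjusted p = 0.000529). In the other 2 groups Alas2 was 8.38, 11.1, 10.8 and 10.0 CPM in E and 19.99, 20.6, 21.1 and 20.02 CPM in T, again without overlap. Hbb-bs (chr7:103475730-103482989) was 189, 194, 133 and 151 CPM in C and 334, 341, 339.8 and 435 CPM in TE, a log2 difference of 1.12 ± 0.13 SE (adjusted p = 0.00101). TE4 held the highest level of both genes. The same was true of the other globin chains, of which Hbb-bt was 27.8, 26.8, 17.3 and 20.3 CPM in C and 50.1, 48.2, 50.2 and 95.8 CPM in TE (log2 1.41 ± 0.20 SE, adjusted p = 0.00403). Hba-a1 differed by log2 1.06 ± 0.15 SE (adjusted p = 0.00403) and Hba-a2 by 1.03 ± 0.18 SE (adjusted p = 0.0196), and neither overlapped between the groups. Globin copies within each cluster are near identical, so how their reads were divided is uncertain. Of the 21 tested genes of the erythroid and heme list, 5 were called, all higher (against 0.231% of all tested genes), and all 5 remained so without TE4. The other 16 were not called, and the list's median log2 fold change was 0.05, against 0.00196 over all genes. The calls of Alas2, Hbb-bs, Hbb-bt and Hba-a1 held whichever library was left out, whereas Hba-a2 lost its call without C3 or C4 (adjusted p up to 0.0968).

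The acute phase genes Lrg1 and Serpina3n and the interleukin-6 family receptor gene Osmr rose in TE. Lrg1 (chr17:56426283-56429001), a secreted glycoprotein of the acute phase response, measured 12.5, 13.2, 11.8 and 13.6 CPM in C and 22.3, 27.2, 27.2 and 36.8 CPM in TE. No TE library came near the C libraries, and Lrg1 was 2.22-fold higher (log2 1.15 ± 0.14 SE, adjusted p = 0.00101). Osmr (chr15:6843053-6904450), the oncostatin M receptor subunit that signals through STAT3, stood at 14.3, 17.9, 16.6 and 13.7 CPM in C against 27.6, 29.7, 31.4 and 36.5 CPM in TE (log2 1.00 ± 0.15 SE, adjusted p = 0.00403). Both calls held with any library left out. Serpina3n, an acute phase inhibitor of serine proteases, was 3.91, 3.13, 3.18 and 2.80 CPM in C and 6.30, 9.33, 12.8 and 17.8 CPM in TE (log2 1.83 ± 0.38 SE, adjusted p = 0.0486). Its groups did not overlap, but its reads may be shared with close Serpina3 paralogs and its call was lost on omission of any library except TE1 (adjusted p up to 0.198). All 11 tested acute phase genes had higher fitted values in TE, 2 of them called (4 by DESeq2 and 4 with C and TE fitted alone), and their median log2 value was 0.85. These other fits called more genes in all, 1.64% of those tested by DESeq2 and 1.11% with C and TE fitted alone. Of the 20 tested genes of the IL-6 receptor and STAT3 list, 17 had higher values and 1 was called (3 by DESeq2 and 3 with C and TE fitted alone), with a median of 0.26. The summed level of each list was higher in every TE library than in every C library, at 256 to 331 against 145 to 213 CPM for acute phase genes. For those genes it was 212 to 320 CPM in E and 188 to 483 CPM in T. Their median log2 value was 0.65 for E against C and 0.25 for T against E. Serpina3n was higher in every E library than in every C library. The STAT consensus TTCNNNGAA was absent from the 250 bases before Lrg1, Osmr and Serpina3n, where 7.69% of protein-coding genes held it, which says only that these letters are not in that window.

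The neutrophil genes S100a9 and Retnlg were at low levels in muscle and higher in TE. S100a9, a calcium-binding protein abundant in neutrophils, was 0.670, 2.62, 0.728 and 0.522 CPM in C and 6.46, 8.41, 9.04 and 10.8 CPM in TE. All TE libraries exceeded all C libraries, C2 standing highest among the latter, with a log2 difference of 2.92 ± 0.60 SE (adjusted p = 0.0475). Retnlg, a resistin-like protein of neutrophils, had 0 counts in all 4 C libraries and 13 to 52 counts in the TE libraries. Taking 3 counts over the C group as the floor, it was at least 36.4-fold higher in TE (adjusted p = 0.0369). Of 14 tested genes of the list 13 had higher values, 2 were called (6 by DESeq2 and 3 with C and TE fitted alone) and 9 had an unadjusted p under 0.05 in that direction (7.06% of all tested genes), and the list median was log2 1.89 (2.00 for T against E). Both calls were lost without C1, C3, C4 or TE4, among others, with adjusted p up to 0.198 for S100a9 and 0.119 for Retnlg. With all libraries kept, S100a9 also lost its call in the robust edgeR fit, limma voom and limma on log2(FPKM + 0.1). Retnlg lost its call in limma on log2(FPKM + 1). Without TE4 the median was 1.39 and no member was called. The list's summed level was 41.4 to 81.0 CPM in C and 61.8 to 149 CPM in TE, so the groups overlapped, and 3 of its genes were at 0 in every C library. Csf2rb2, a receptor subunit of interleukin-3 on myeloid cells, was 1.25, 2.25, 4.15 and 2.72 CPM in C and 6.62, 7.24, 6.49 and 15.9 CPM in TE (log2 1.80 ± 0.34 SE, adjusted p = 0.0338). TE4 was again the highest, and the call was lost without TE4 (adjusted p = 0.0784), C1, C2 or C4. Among the C and TE libraries TE4 held the highest level of every called gene named so far from Alas2 to Csf2rb2, and the part of its lymphocyte genes in these results was not tested beyond the values without TE4.

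**Figure D2:**
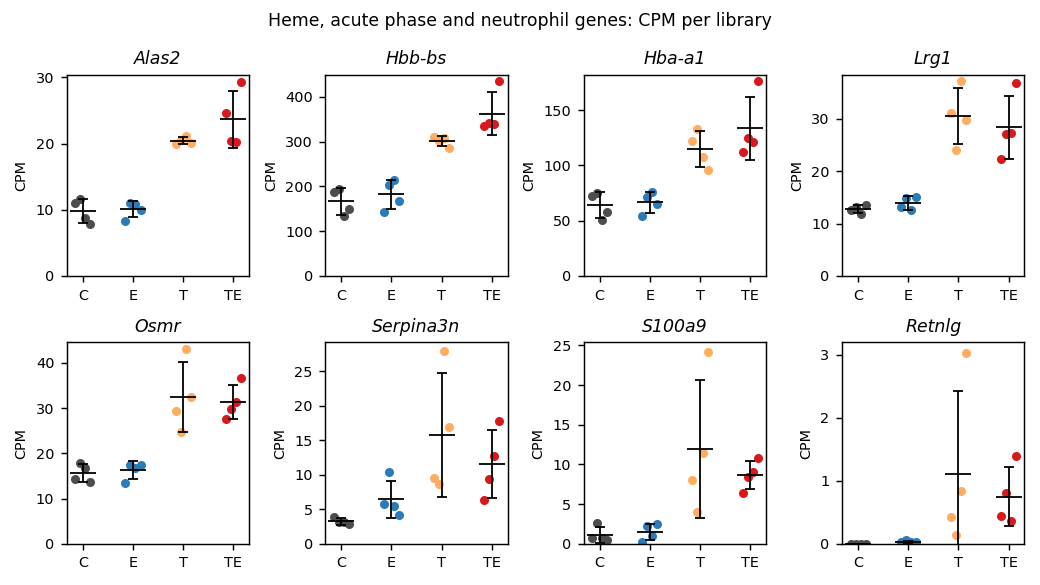
CPM of 8 called genes of heme, globin, acute phase and neutrophil function in each of the 16 libraries, by group on the horizontal axis, with bars for the mean ± SD of 4 libraries. For each gene the TE points lie above all C points, and the T points lie above all E points except for Serpina3n.

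Interferon-induced GTPases were higher in TE. Gbp4, a guanylate-binding GTPase that acts against intracellular pathogens, was 23.9, 25.1, 37.1 and 36.3 CPM in C and 60.6, 72.0, 57.3 and 64.5 CPM in TE (log2 1.05 ± 0.15 SE, adjusted p = 0.00403). The E and T libraries of Gbp4 measured 33.5, 24.9, 25.6 and 38.6 CPM and 43.5, 36.3, 38.7 and 34.5 CPM, so every TE library was the higher. Igtp, an immunity-related GTPase, was 9.36, 8.57, 9.28 and 10.3 CPM in C and 16.8, 17.9, 14 and 14.6 CPM in TE (log2 0.75 ± 0.11 SE, adjusted p = 0.0048), and its TE libraries exceeded those of the other 3 groups as well. Tgtp1 was 3.64, 2.06, 4.21 and 3.21 CPM in C and 5.02, 9.94, 7.46 and 9.84 CPM in TE (log2 1.30 ± 0.23 SE, adjusted p = 0.0215). Iigp1 was 15.6, 11.9, 21.6 and 19.1 CPM in C and 31.8, 37.8, 29.1 and 25.5 CPM in TE (log2 0.86 ± 0.16 SE, adjusted p = 0.0318). Tgtp1 and Iigp1 are further immunity-related GTPases, and Gbp6 (log2 0.93 ± 0.18 SE, adjusted p = 0.0374) is a relative of Gbp4. The groups did not overlap for any of the 5. Of 36 tested genes of the interferon and MHC class I list, 28 had higher values, against 7450 of all 14749 tested genes. Of the 36, 5 were called, all higher, against 0.231% of all tested genes (without TE4 also 5, Tgtp1 not among them). The list's median log2 fold change was 0.29 (0.16 without TE4). Ube2l6, the conjugating enzyme of the ISG15 modifier, was also higher (log2 0.59 ± 0.11 SE, adjusted p = 0.0296). Gbp4 and Igtp kept their calls with any library left out. Tgtp1, Iigp1 and Gbp6 lost theirs without C4 or TE3 and without several others, with adjusted p up to 0.0964, 0.0861 and 0.115, and Ube2l6 lost its call without C3, C4 or TE4 (up to 0.139). Tgtp1 and Iigp1 also lost their calls with the replicate number as a block. Gbp6 lost its call in limma on log2(FPKM + 0.1) and Ube2l6 with only C and TE in the fit. Reads of the Gbp and Tgtp families can be shared between near-identical copies.

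Set beside the untrained tumor-bearing mice, Gbp4 differed between TE and T by log2 0.73 (95% interval 0.41 to 1.06), Igtp by 0.49 (0.25 to 0.73), Tgtp1 by 1.10 (0.61 to 1.58), Iigp1 by 0.57 (0.23 to 0.91) and Gbp6 by 0.39 (0.01 to 0.76). These intervals are not adjusted for the number of genes, and the adjusted p of the 5 was between 0.516 and 0.847, so none passed. Of the 48 called genes 18 had an interval that left out 0, while 867 of all 14749 tested genes had an unadjusted p under 0.05 here. The 18 are no result about the called genes, which were chosen on TE against C, a comparison with the same TE libraries. Among the 18 were Hbb-bt (0.05 to 0.89), Hba-a2 (0.04 to 0.79), Tspan13 (0.05 to 0.38) and, lower in TE than in T, Tspan4 (-0.65 to -0.15), with adjusted p of 0.693 to 0.84. The intervals of Alas2, Lrg1 and Osmr spanned 0, at -0.07 to 0.49, -0.39 to 0.18 and -0.35 to 0.25. Over all genes, TE against T had 0 called genes by edgeR, with 867 at an unadjusted p under 0.05, and 7 by DESeq2, an alternative test. An interval that spans 0 does not show that training left a gene alone.

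The interferon-stimulated core GAAANNGAA, read on both strands, was found before 7.56% of protein-coding genes. Gbp4, Gbp6 and Iigp1 held it and Igtp and Tgtp1 did not. The 2 Gbp matches (chr5:105287660-105287689, minus strand, 225 bases before the transcript and outside annotated genes, and chr5:105441843-105441872, minus strand, 29 bases before it and overlapping an exon of another transcript) are shown because they share their flanking letters, with the core in capitals on the strand of each gene.
Gbp4: atgggttccaaaGAAAGAGAAtgtaaatac
Gbp6: atgggttccaagGAAAGAGAAggtaaacag

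Clock genes and some others separated C from the other 3 groups. Arntl (chr7:112806152-112914735), which encodes the circadian activator BMAL1, was 7.70, 7.04, 6.12 and 6.29 CPM in C, 19.1, 24.5, 13.8 and 27.0 CPM in E, 14.2, 9.17, 26.3 and 16.2 CPM in T and 27.3, 18.8, 26.9 and 14.6 CPM in TE. Every library of E, T and TE lay above every C library, and TE differed from C by log2 1.69 ± 0.28 SE (adjusted p = 0.0105), while E against C gave 1.64 (adjusted p = 0.028) and T against C 1.28 (adjusted p = 0.0439). Its partner Clock was 25.2, 22.5, 23.1 and 23.5 CPM in C and 36.7, 33.6, 34.9 and 31.9 CPM in TE (log2 0.54 ± 0.11 SE, adjusted p = 0.0475). Of 19 tested clock genes, 2 were called, both higher, while 12 had lower values and 9 of those an unadjusted p under 0.05 (5.68% of all tested genes were lower at that p), and the median log2 fold change was -0.27. DESeq2 called 6 of the 19 (1.64% of all genes it tested) and edgeR on C and TE alone called 9 (1.11% of all). Arntl lost its call without C4 (adjusted p = 0.0681) and Clock on omission of any 1 of the 8 libraries (up to 0.185). These genes oscillate over the day, and the part of collection time was not tested.

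Srebf1, the transcription factor of fatty acid synthesis, was 44.6, 43.5, 42.9 and 44.4 CPM in C, 69.8, 59.9, 55.3 and 69.1 CPM in E, 77.9, 81.4, 53.1 and 76.3 CPM in T and 64.0, 86.1, 75.5 and 84.0 CPM in TE. Again every library outside C was higher than the C libraries, and the TE difference was log2 0.82 ± 0.12 SE (adjusted p = 0.00403), called with any library left out. It was the 1 called gene of 26 tested lipogenesis genes (median 0.15), against 0.325% of all tested genes. Of the 26, DESeq2 called 2 (against 1.64% of all genes it tested). Tspan4, a tetraspanin of migrating cells, was lower, at 25.1, 26.9, 28.0 and 32.5 CPM in C and 14.2, 16.6, 13.4 and 16.7 CPM in TE, without overlap (log2 -0.89 ± 0.12 SE, adjusted p = 0.00313). Nudt7, a peroxisomal enzyme that cleaves coenzyme A, was lower (log2 -0.56 ± 0.09 SE, adjusted p = 0.0105), and its call was lost without C4 or TE3 (up to 0.0629). Map3k6, a kinase and the 1 called gene of 19 tested glucocorticoid targets (4 by DESeq2 and 4 with C and TE fitted alone), was 5.66, 5.20, 3.16 and 4.42 CPM in C and 10.0, 14.6, 14.97 and 16.9 CPM in TE (log2 1.62 ± 0.28 SE, adjusted p = 0.0177), and was lost without C3, C4 or TE3 (up to 0.0882). The glucocorticoid list had 17 of 19 higher values, 11 with an unadjusted p under 0.05 against 7.06% of all tested genes, and a median of 0.42.

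**Figure D3:**
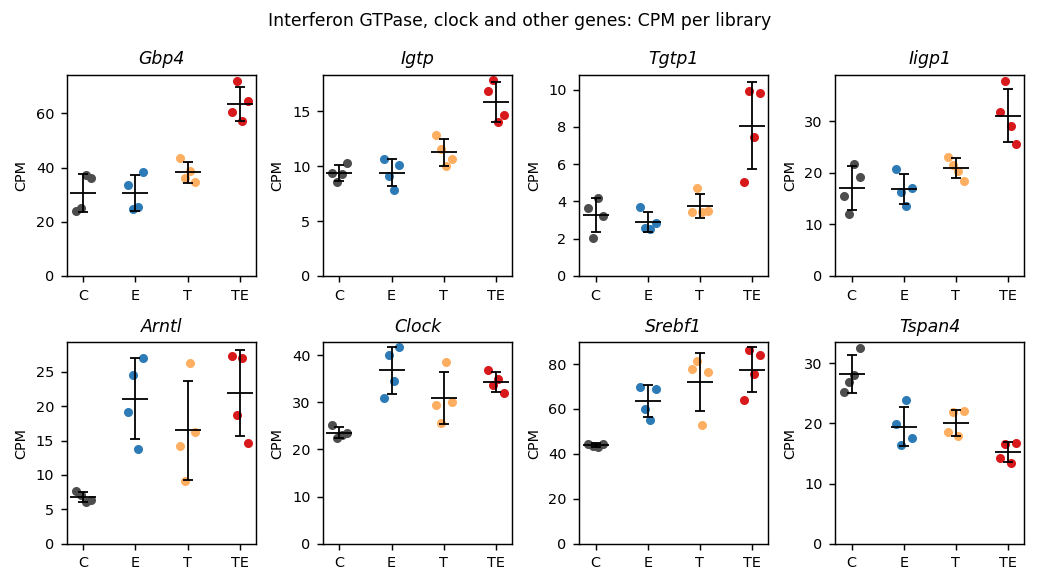
CPM of 8 called genes in each of the 16 libraries by group, with bars for the mean ± SD of 4 libraries. For Gbp4, Igtp, Tgtp1 and Iigp1 the TE points lie above every point of C, E and T, whereas for Arntl, Clock and Srebf1 the C points lie below every point of the other 3 groups.

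Several vascular and surface genes moved. Cav1, the main caveolar coat protein of endothelium and fat, was 451, 506, 494 and 527 CPM in C and 386, 363, 378 and 367 CPM in TE (log2 -0.40 ± 0.06 SE, adjusted p = 0.00403). Grrp1 of the endothelial list was higher, at 4.98, 5.33, 3.40 and 3.65 CPM in C and 13.1, 10.6, 9.29 and 11.0 CPM in TE (log2 1.34 ± 0.21 SE, adjusted p = 0.00569). These 2 were the called genes among 30 tested endothelial genes (median 0.18), and both groups of libraries were fully separated. DESeq2 called 9 of the 30 (against 1.64% of all genes) and edgeR on C and TE alone called 5 (against 1.11%), and at an unadjusted p under 0.05 there were 11 higher and 7 lower (against 7.06% and 5.68% of all tested genes). Outside that list, Gja5, the connexin of arterial endothelium, was higher by log2 0.99 ± 0.18 SE (adjusted p = 0.0276) and Sema3g, a secreted semaphorin, by 0.76 ± 0.14 SE (adjusted p = 0.0318). Both lost their calls without C1, C3, C4, TE3 or TE4, and Sema3g also without TE2 (up to 0.136). Cd200, a surface ligand that restrains myeloid cells, was lower, at 64.0, 71.1, 60.4 and 63.0 CPM in C and 44.9, 45.9, 38.9 and 39.8 CPM in TE (log2 -0.61 ± 0.09 SE, adjusted p = 0.00403). Tspan13, another tetraspanin, was lower (log2 -0.49 ± 0.08 SE, adjusted p = 0.00826), as was Chek2, a kinase of the DNA damage checkpoint (log2 -0.88 ± 0.14 SE, adjusted p = 0.00918, or 0.0588 without C4). H1f2, a linker histone, was lower (log2 -0.50 ± 0.09 SE, adjusted p = 0.021, up to 0.0964 without C3, C4, TE2 or TE3). Another 2 genes completed the 30 smallest p-values, Rnps1, a splicing factor, higher by 0.35 ± 0.07 SE (adjusted p = 0.0369), and the long noncoding RNA 2810454H06Rik, lower (log2 -2.39 ± 0.43 SE, adjusted p = 0.0219). The latter was close to the floor in TE, at 0.163, 0.139, 0.0832 and 0.134 CPM against 0.670, 0.562, 0.809 and 0.742 CPM in C, and it was lost without C3, C4, TE2, TE3 or TE4, as was Rnps1 without any library but TE2 (up to 0.102 and 0.102).

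The remaining 15 called genes had larger p-values (adjusted p 0.0401 to 0.0499), and they are named here after their values were seen. Higher in TE were Entpd1 and Nt5e, which together turn extracellular ATP into adenosine, with log2 differences of 0.91 ± 0.18 SE and 0.98 ± 0.20 SE. Il1r1, the interleukin-1 receptor (0.83 ± 0.17 SE), Prkcd, a protein kinase C (0.83 ± 0.17 SE), Actn1, a nonmuscle alpha-actinin, Arrb1, a beta-arrestin, Skil, a repressor of TGF-beta signaling, and Clmn were also higher, the last 4 by 0.56 to 0.92. Vstm5 had 2 counts over the C libraries and 37 over the TE libraries, a ratio of 18.4 (95% counting interval 4.74 to 157). Lower in TE were Smpdl3b, a sphingomyelinase-like enzyme (-1.41 ± 0.29 SE), Jrk, Rgma, a co-receptor of bone morphogenetic proteins (-0.46 ± 0.09 SE), Mllt3, Nrde2 and Wbp2. Their calls were fragile. Each was lost on omission of C4 and of at least 5 other libraries, with the highest adjusted p between 0.112 and 0.199.

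The T and E groups are mice other than those of TE and C, and T mice carry tumors while E mice do not, but there the trained mice are the tumor-free ones, so training enters with the opposite sign. T against E gave 120 called genes (0.814% of those tested). Of the 48 genes called in TE against C, 12 were called there too and in the same direction, and 0 in the opposite direction. The signs matched for 35 of the 48, against 51.7% of all tested genes. The 9 higher genes were Alas2, Hbb-bs, Hba-a1, Lrg1, Osmr, Grrp1, Ube2l6, Retnlg and S100a9, and the 3 lower genes were Cd200, Tspan13 and Chek2. Among their log2 fold changes in T against E were Lrg1 at 1.13 (adjusted p = 0.00211), Osmr at 0.99 (adjusted p = 0.0039), Cd200 at -0.54 (adjusted p = 0.00474) and Chek2 at -0.86 (adjusted p = 0.00664). Other genes had values near 0 in T against E. Tspan4 was at 0.05 (adjusted p = 0.907), Nudt7 at 0.05 and Srebf1 at 0.18 (adjusted p = 0.547), while Arntl was at -0.35 (adjusted p = 0.619). For each of these genes E and T both lay on the same side of C as TE, without overlap, so a value near 0 is not an absence of change from C. Against C, E and T differed by log2 -0.54 and -0.49 for Tspan4 and by -0.49 and -0.44 for Nudt7. The GTPases had 0.02 to 0.37, none called. The count of T against E also moved with single libraries left out, fits that hold fewer mice. It was 54 without E2, 41 without E3, 70 without E4, 69 without T1, 77 without T4 and 265 without T3. With C and TE fitted alone and T and E fitted alone, an alternative chosen after seeing the data in which no estimate is shared, 156 genes called in TE against C were also tested in T against E. Among them 11 were called in T against E in the same direction (0.28% of all genes were called there), namely Alas2, the 4 globin genes, Lrg1, Osmr, Grrp1, Cd200, Tspan13 and Chek2. The signs matched for 107 of the 156, against 52.1% of all genes, and 1 gene, the complement gene C7, was called in opposite directions (log2 0.96 and -1.30). The difference between the 2 comparisons was tested as a contrast in the 16-library fit, also added after seeing the data, and 1 gene passed, C7 (log2 2.26, adjusted p = 0.00806). None of the 48 called genes passed. Of all tested genes 10.8% had an unadjusted p under 0.05 for that difference, as did 30 of the 48, which is no result about them because they were chosen on TE against C, a part of this contrast. Tspan4 (log2 -0.94 ± 0.17 SE, adjusted p = 0.1) and Arntl (2.04 ± 0.38 SE, adjusted p = 0.1) were among the nearest to the threshold.

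**Figure D4:**
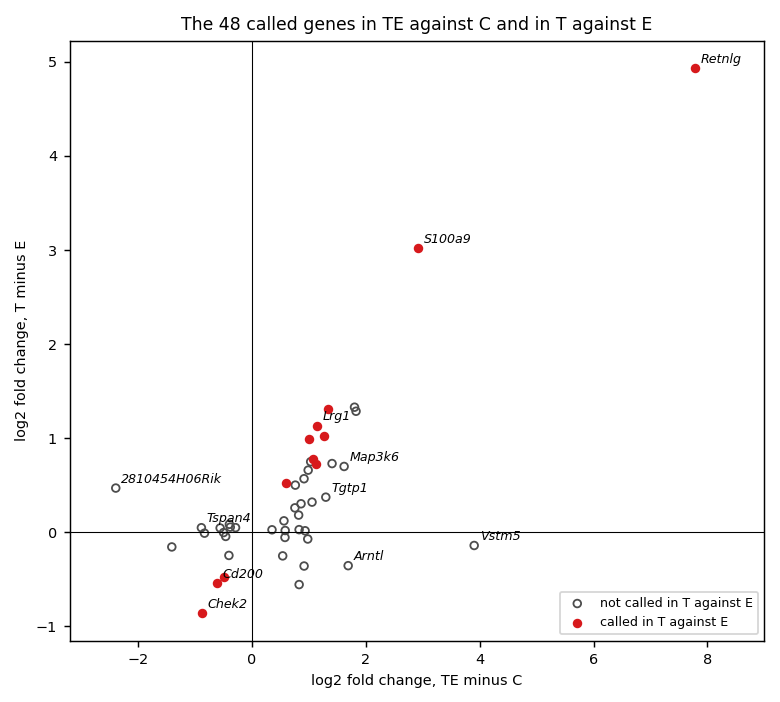
Each of the 48 called genes is placed by its log2 fold change in TE minus C (horizontal axis) and in T minus E (vertical axis), with filled red points for the 12 that were also called in T against E. Red points lie at the upper right and lower left of the plot, and open points such as Tspan4 and Arntl lie near or below 0 on the vertical axis.

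The lists that describe the muscle fiber held no called gene in the sense used here (edgeR over the 16 libraries with the filter on low counts), and other settings called single members. Among 25 tested atrophy and FoxO genes 17 had higher values and the median log2 fold change was 0.09. Foxo1, a driver of muscle protein breakdown, was 22.9, 23.3, 27.7 and 25.2 CPM in C and 31.4, 35.3, 33.0 and 43.3 CPM in TE, without overlap, but missed the threshold (log2 0.53 ± 0.12 SE, adjusted p = 0.0792). DESeq2 called it (adjusted p = 0.00676), as did edgeR without a filter on low counts (0.0313) and on C and TE alone (0.0382), out of adjusted p-values of 0.00676 to 0.213 over all alternatives. The proteasome list (31 tested, median -0.02), sarcomere list (49 tested, -0.01), complex I list (47 tested, -0.05), heat shock list (22 tested, 0.01), collagen list (32 tested, -0.01) and acetylcholine receptor list (19 tested, -0.05) had medians close to that of all genes. Without TE4 the median was 0.11 for the heat shock list and 0.02 for the collagen list. In the fatty acid oxidation list 25 of 28 genes had lower values, and in complex I 38 of 47, with medians of only -0.06 and -0.05. Of 25 tested regulators of endurance training (median 0.01), Ppargc1a, the coactivator of mitochondrial biogenesis, was 32.5, 28.8, 34.0 and 27.6 CPM in C and 43.7, 44.8, 48.9 and 32.8 CPM in TE (log2 0.47 ± 0.10 SE, adjusted p = 0.0639). It overlapped between the groups through TE4. Ppargc1a was called by edgeR without TE4 (adjusted p = 0.00967) and also without TE4 and C3 together. With all libraries kept, it was called by DESeq2 (0.0054), by edgeR without the filter (0.0319) and by limma voom (0.0212). The adjusted p was 0.0054 to 0.242 over all alternatives. Jund, an AP-1 factor of the immediate early list, was 36.7, 41.0, 32.9 and 40.4 CPM in C and 24.5, 25.4, 27.3 and 23.3 CPM in TE (log2 -0.59 ± 0.13 SE, adjusted p = 0.0639), and DESeq2 (0.00368), edgeR without the filter (0.0206) and on C and TE alone (0.00855), and limma voom (0.0333) called it (with 0.00368 to 0.213 over all alternatives).

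Lists of other cell types also held no called gene in that sense apart from those above. Schwann cell and myelin genes had lower values for 18 of 19 tested members, 8 with an unadjusted p under 0.05 against 5.68% of all tested genes, and a median of -0.56. Pmp2, a lipid-binding protein of myelin, was 6.65, 8.49, 6.47 and 5.22 CPM in C and 1.71, 4.09, 2.63 and 3.08 CPM in TE (log2 -1.22 ± 0.30 SE, adjusted p = 0.0936), with no overlap, and DESeq2 called it (adjusted p = 0.00613), as did edgeR without the filter (0.0388), with the replicate block (0.0326) and on C and TE alone (0.0373), with 0.00613 to 0.24 over all alternatives. The summed level of the list was 557 to 1212 CPM in C and 410 to 571 CPM in TE, which overlapped. Adipocyte genes had a median of 0.50 with 13 of 17 values higher and summed levels that overlapped, and Car3, an abundant carbonic anhydrase of fat and slow muscle, was 1062, 1171, 1207 and 1261 CPM in C and 807, 786, 805 and 742 CPM in TE (log2 -0.58 ± 0.19 SE, adjusted p = 0.212). Car3 was called with C and TE fitted alone (adjusted p = 0.00245, with 0.00245 to 0.441 over all alternatives). Lipe, the hormone-sensitive lipase, had values in the opposite direction, with 36.4, 39.2, 36.6 and 35.0 CPM in C and 47.0, 58.6, 50.4 and 46.3 CPM in TE (log2 0.46 ± 0.16 SE, adjusted p = 0.254) and no overlap, and it too was called with C and TE fitted alone (adjusted p = 0.0243, with 0.0243 to 0.488 over all alternatives). For macrophages 19 of 22 had higher values (median 0.44, or 0.28 without TE4). For lymphocytes 26 of 29 were higher with a median of 1.00, which was -3.31 without TE4. Tendon and cartilage-like genes had a median of 0.08 (0.03 without TE4). Among the lists not yet described, none of which held a called gene in that sense, the median was 0.21 for metallothioneins and zinc transporters (10 tested), 0.14 for amino acid transport and catabolism (18, with 0.02 without TE4), 0.06 for IGF, insulin and STAT5 signaling (22), 0.02 for polyamine genes (12) and 0.01 for oxidative stress defense (27). It was -0.06 for immediate early genes (23), -0.07 for glycolysis and glycogen (32) and -0.17 for cholesterol synthesis (17), where 14 of 17 values were lower. Without TE4 the median was 0.01 for immediate early genes and -0.01 for glycolysis and glycogen. It was then 0.11 for IGF, insulin and STAT5 signaling and 0.26 for metallothioneins and zinc transporters.

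**Figure D5:**
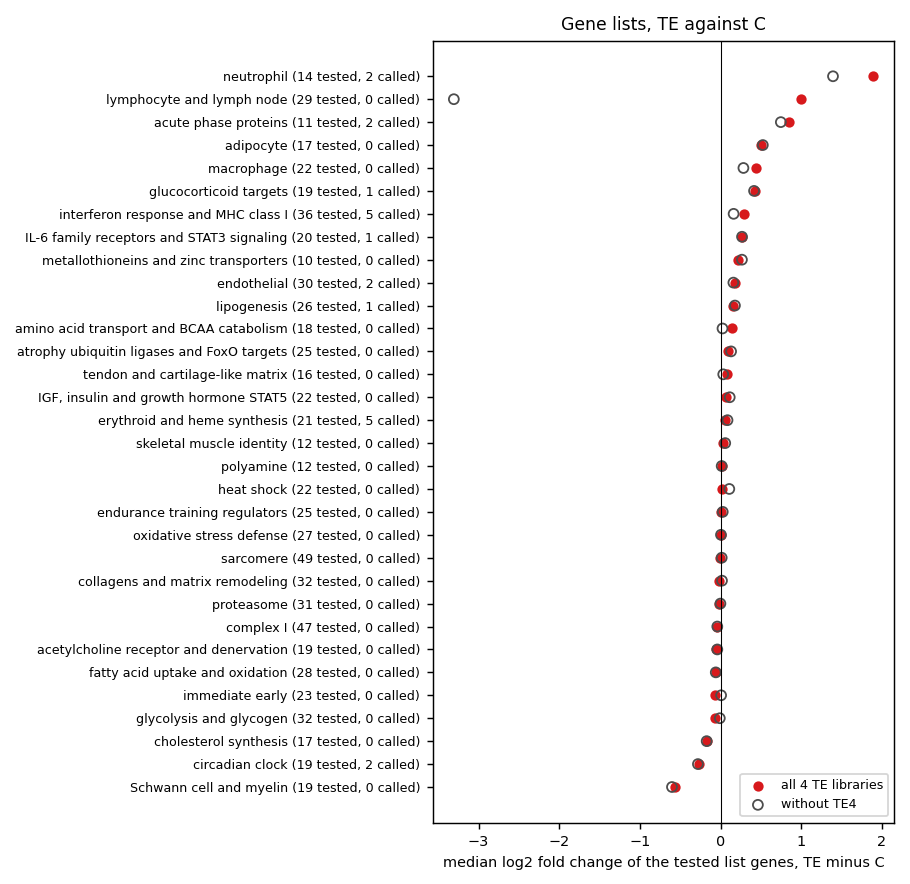
Median log2 fold change of TE minus C over the tested genes of each of the 32 lists, with all 4 TE libraries (filled) and without TE4 (open), and the number tested and called beside each name. The lymphocyte list moves from 1.00 to -3.31 without TE4, and the muscle, mitochondrial and proteasome lists lie near 0.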

How the data were processed

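PolyA RNA of mouse gastrocnemius was sequenced in 16 libraries, with 4 libraries per group (C, E, T, TE). Grouping followed the sample labels, which also give 1 batch number to all libraries. Per the submitters' processing notes, reads were trimmed with fastp 0.20.1, aligned to GRCm39 with HISAT2 2.1.0 and counted per gene with HTSeq 0.11.2. The authors deposited raw counts per gene and FPKM values (counts per gene length and per library total) for 35415 genes by symbol. The strand setting and annotation release are not given in the sources used here, so overlapping genes and near-identical copies are uncertain. There were 0 columns of other samples.

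Counts were tested with edgeR 4.0.16 in R 4.3.3, using TMM factors, filterByExpr (14749 genes kept), 1 coefficient per group over all 16 libraries, the two-sided quasi-likelihood test and Benjamini-Hochberg adjustment over all tested genes. The deposited FPKM values were used only in an alternative, with limma 3.58.1 on log2(FPKM + 1) and log2(FPKM + 0.1). Library totals were 35628211 to 37635741 counts. The p-values measure the spread between mice of this one experiment. The code was tested on simulated data.

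Named genes were Alas2, Hbb-bs, Lrg1 and Srebf1, the 30 genes with the smallest p, and of each of 32 lists the called members or, where none was called, the 2 with the smallest p. The comparison, its markers and these lists were chosen with earlier results of these data known. Lists are described by counts and medians, with no set test. Gene positions were read from GENCODE (GRCm39), which held 92 of 93 named genes, and promoter windows from the GRCm39 genome. Alternatives were DESeq2 1.42.0, its size factors in edgeR, no filter on low counts, limma voom with sample weights, a robust edgeR fit, a fit of C and TE alone, FPKM scales, the replicate number as a block, a fold of 1.5, the unadjusted p-value and each library left out. Separate fits of C with TE and of T with E, and the contrast of the 2 comparisons, were added after seeing the data.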

Additional observations from a re-analysis of the deposited data

Results flagged for a closer look

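Among the named genes, 185 groups of 4 values in C and TE were searched for a library whose gap to its nearest neighbor was above Dixon's critical value for 4 values, and 15 library values were found, where chance gives about 1 in 20 groups. TE4 stood apart for Hbb-bs at 435 CPM (above 334 to 341 CPM in the other 3 libraries), Hbb-bt at 95.8 CPM (above 48.2 to 50.2 CPM in the other 3 libraries), Csf2rb2 at 15.9 CPM (above 6.49 to 7.24 CPM in the other 3 libraries), Cxcl13 at 14.1 CPM (above 0.733 to 2.55 CPM in the other 3 libraries) and Pou2af1 at 8.72 CPM (above 0 to 0.0543 CPM in the other 3 libraries). C2 stood apart for Rnps1 at 15.4 CPM (below 16.9 to 17.1 CPM in the other 3 libraries), S100a9 at 2.62 CPM (above 0.522 to 0.728 CPM in the other 3 libraries), Pfkp at 8.22 CPM (above 6.32 to 6.56 CPM in the other 3 libraries), Jrk at 3.16 CPM (below 4.37 to 4.59 CPM in the other 3 libraries) and Smpdl3b at 2.68 CPM (below 4.59 to 4.95 CPM in the other 3 libraries). TE3 stood apart for Pfkfb1 at 72.3 CPM (above 61.6 to 62.6 CPM in the other 3 libraries) and Ndufaf6 at 17.9 CPM (above 16.1 to 16.3 CPM in the other 3 libraries). TE2 stood apart for Nrde2 at 11.4 CPM (below 12.5 to 12.6 CPM in the other 3 libraries). C1 stood apart for Prkcd at 10.1 CPM (below 12.4 to 12.9 CPM in the other 3 libraries). C3 stood apart for Psmb2 at 67.7 CPM (below 81.4 to 83.3 CPM in the other 3 libraries). TE4 was also the library with the highest summed level of lymphocyte genes.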

How the results depend on the processing

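The number of genes called in TE against C was 48 and depended on the test and on single libraries. It was 242 with DESeq2, 117 without a filter on low counts, 101 with limma voom and sample weights, 157 with only C and TE in the fit, 30 with limma on log2(FPKM + 1), 30 on log2(FPKM + 0.1), 1880 at the unadjusted p, 14 to 46 with 1 library left out and 17 without TE4 and C3 (chosen after seeing the data). The genes passing a fold of 2 numbered 19, and they were 70 with DESeq2, 48 without a filter, 48 with only C and TE, 6 with limma on log2(FPKM + 1), 286 at the unadjusted p, 35 at a fold of 1.5, 7 to 27 with 1 library left out and 6 without TE4 and C3. Without C3, C4, TE3 and TE4 they numbered 11, 7, 11 and 9. T against E had 120 called genes, 340 with DESeq2 and 41 to 265 with 1 library left out. TE against T had 0 called genes, 7 with DESeq2, 3 without a filter and 0 or 1 with 1 library left out. The cause was not tested. Of 863 recomputed values of the 48 genes, 570 kept their call, 293 lost it and 0 reversed, and 10 genes were called under every setting. Losses named beside single genes above are mostly those with 1 library left out, and several of these genes also lost their call under other alternatives. Pou2af1, a B-cell gene that was not called, had log2 2.19 and reversed to -0.22 with the replicate block, -1.11 with voom and -3.96 without TE4, the lowest of the fits with 1 library left out (highest 3.71).

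Same-numbered mice of C and TE are different animals, and the correlations of their deviations from the group means were between -0.21 and 0.18, so the numbers were not taken as pairs. With the replicate number as a block 50 genes were called, 37 of them among the 48. With 4 mice per group, depth was not the limit for most named genes, since 3 counts were at most 0.0875 CPM, but genes such as Retnlg, Vstm5, 2810454H06Rik and Pou2af1 lay near that level in at least 1 group.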
